A study of Rattus norvegicus with 12 samples.

Results

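The 2 mature arms of rat miR-423, rno-miR-423-5p and rno-miR-423-3p, were followed across 12 Agilent miRNA arrays of heart tissue. They were 2 of the 758 rat miRNAs on the array, and both were among the 263 miRNAs that passed the detection filter. The arms were chosen by measured values of these arrays, because miR-423-5p had been seen at a lower signal in YQFM than in MI hearts without a clear difference between MI and Sham. Its group differences are therefore given as descriptions without a test, while miR-423-3p, whose values were not used for that choice, was tested.

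The animals were male Wistar rats. Sham rats had surgery without ligature and received saline. MI rats had the left anterior descending coronary artery ligated, which leads to chronic heart failure, and received saline. YQFM rats had the same ligation, and from 4 weeks after surgery received Yiqifumai Injection (YQFM), an injection prepared from botanical drugs, at 5 mg/kg/d for 28 days. RNA was taken from the left ventricle near the infarction area, with 4 rats per group and 1 single-color array per rat. The heart markers miR-1-3p, miR-133a-3p, miR-133b-3p and miR-499-5p were detected on all 12 arrays, whereas miR-208a-3p was detected on 1 array and miR-208b-3p on 0 arrays. The other arm of miR-208a, miR-208a-5p, was detected on 9 arrays. Liver and brain miRNAs (miR-122-5p, miR-124-3p and miR-9a-5p) were detected on 0 arrays.

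Slide and group were partly confounded. MI replicates 1 to 3 were hybridized on slide 1. MI replicate 4 and YQFM replicate 1 shared slide 2, and the Sham group shared slide 3 with YQFM replicates 2 to 4. MI replicate 4 and Sham replicate 4 carried source names of other groups (Sham and YQFM), and were kept in the groups of their titles. Between 211 and 268 miRNAs were detected per array.

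A miRNA gene is transcribed as a hairpin, which is cut into a short duplex of 2 arms. Usually 1 arm is loaded into an Argonaute protein and guides it to messenger RNAs through its seed, and the other arm is mostly degraded, so that both arms come from 1 transcript and can still be present at different levels. miR-423-5p is known as a miRNA whose plasma level has been studied as a marker of heart failure. In a tissue sample, fewer cells of a type and less RNA per cell cannot be told apart.

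The mature sequence of miR-423-5p and the hairpin are shown first, since they define what the probes of each arm can bind. Sequences of RefSeq for the GRCr8 assembly held 1 of the 2 arms as a mature entry. In the mature sequences the seed (bases 2 to 8) is in capitals, and in the hairpin the capitals mark miR-423-5p (bases 11 to 34) and the stretch complementary to the longest miR-423-3p probe (bases 56 to 69).
miR-423-5p: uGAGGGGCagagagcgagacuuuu
Mir423 hairpin: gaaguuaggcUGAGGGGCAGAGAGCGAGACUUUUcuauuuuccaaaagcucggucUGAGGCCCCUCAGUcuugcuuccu
miR-3573-5p: uGAGGGGCagugauagaaagga

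The hairpin of 79 bases lay at chr10:62412272-62412350 on the minus strand of GRCr8, and the 24 bases of miR-423-5p at chr10:62412317-62412340. The hairpin was inside the protein-coding gene Nsrp1 (chr10:62378937-62412601), beginning 251 bases into it from its annotated start, and the table used did not say whether this is exon or intron. miR-3573-5p, from chromosome X, was the 1 other mature entry that shared the miR-423-5p seed. It was on the array and was detected on 0 of the 12 arrays, so that miR-423-5p was the 1 measured miRNA with this seed among those named in the RefSeq table.

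The array measured miR-423-5p with 2 probes of 8 spots each and miR-423-3p with 4 probes of 4 spots each. The probes are shown because their length and their agreement differed between the arms. In each arm, the probes were nested, all starting from the same end.
miR-423-5p probe 1: aaaagtctcgctctctg
miR-423-5p probe 2: aaaagtctcgctctct
miR-423-3p probe 1: actgaggggcctca
miR-423-3p probe 2: actgaggggcctc
miR-423-3p probe 3: actgaggggcct
miR-423-3p probe 4: actgaggggcc

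Probe 1 of miR-423-5p, of 17 bases, is complementary to bases 8 to 24 of the mature miRNA, and probe 2, of 16 bases, to bases 9 to 24, so that both bind the 3′ end and the seed is read only at its last base by probe 1. The array annotation placed them at chr10:67078747-67078762 and chr10:67078748-67078762 of the older build rn4. The miR-423-3p probes, of 14, 13, 12 and 11 bases, were placed between 67078785 and 67078797 on the same chromosome. The longest run of bases that a miR-423-5p probe target shared with any other mature RefSeq entry was 8.

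YQFM hearts had the lowest miR-423-5p signal of the 3 groups. The values below are spot signals averaged over the probes and scaled to the array's 75th percentile, in arbitrary units that are comparable between arrays for the same miRNA. In Sham hearts, the scaled signal of miR-423-5p was 62.8, 54.1, 64.7 and 64.6 on replicates 1 to 4. In MI hearts, it was 72, 67.5, 91.6 and 59.8. In YQFM hearts, it was 42.2, 41.7, 47 and 55.6.

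All 4 YQFM arrays therefore lay below all 4 MI arrays, and the gap was small. On the log2 scale, the highest YQFM array was at 5.80 and the lowest MI array at 5.90. MI replicate 4, which is the lowest MI array, shared its slide with YQFM replicate 1 and is 1 of the 2 arrays with a conflicting source name. MI and Sham overlapped, with 3 of the 4 MI arrays above all Sham arrays, and YQFM and Sham overlapped, with 3 of the 4 YQFM arrays below all Sham arrays.

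**Figure D1:**
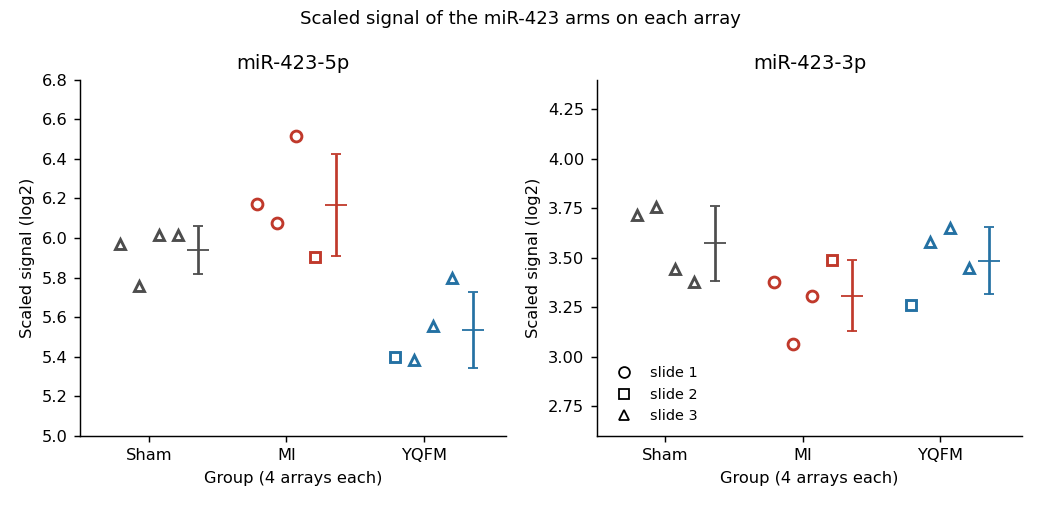
Scaled signal (log2) of miR-423-5p (left) and miR-423-3p (right) on each of the 12 arrays, by group; symbols give the slide, and the bars beside each group are the mean ± SD of 4 arrays. For miR-423-5p the 4 YQFM arrays lie between 5.38 and 5.80 and the MI arrays between 5.90 and 6.52, while for miR-423-3p the 3 groups overlap. The y axes differ and do not start at 0.

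The log2 mean of miR-423-5p was 5.94 ± 0.12 for the Sham arrays, 6.17 ± 0.26 for MI and 5.53 ± 0.19 for YQFM (SD, n = 4 each). The difference between MI and Sham was 0.23 (SE 0.14), a fold of 1.17. It is less than the SD of the MI arrays and more than the SD of the Sham arrays. The difference between YQFM and MI was -0.63 (SE 0.14), a fold of 0.645, which is more than the SD of either group. The difference between YQFM and Sham was -0.41 (SE 0.14), a fold of 0.754. These are the differences by which the arm was chosen.

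Across the 263 tested miRNAs, 6 had every YQFM array below every MI array, a background of 2.28%, and 11 showed the opposite order without overlap (4.18%). The other 5 of the 6 were miR-326-5p (-1.19), miR-3085 (-0.46), miR-490-3p (-0.39), miR-206-3p (-0.33) and miR-490-5p (-0.25), with their YQFM to MI log2 ratios given in parentheses. They were chosen after their values were seen. For YQFM to MI, 8 of the 263 miRNAs had a lower ratio than miR-423-5p, and the median of all tested was -0.0077. For YQFM to Sham, 7 had a lower ratio, and the median of all tested was -0.11. For MI to Sham, 46 had a higher ratio than miR-423-5p.

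The YQFM to MI comparison as a whole gave few differences that could be called. At an adjusted p under 0.05 (limma, Benjamini-Hochberg over the 263 miRNAs), 0 were called (0%), with 50 at an unadjusted p under 0.05. YQFM to Sham also gave 0 calls (0%), with 15 at an unadjusted p under 0.05. Of the tested miRNAs, 16 had every YQFM array below every Sham array (6.08%) and 0 had every YQFM array above (0%). MI to Sham gave 19 calls (7.22%). In that comparison 31 miRNAs had every MI array below every Sham array (11.8%) and 1 had every MI array above (0.38%). With the slide as a block or as a random block, 0 were called for MI to Sham. The counts also depended on single arrays. Without MI replicate 4, 62 were called for MI to Sham and 28 for YQFM to MI, and without YQFM replicate 1 the counts were 29 and 23. Leaving out any 1 of MI replicates 1 to 3 or Sham replicates 1, 2 and 4 gave 4 to 12 calls for MI to Sham.

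**Figure D2:**
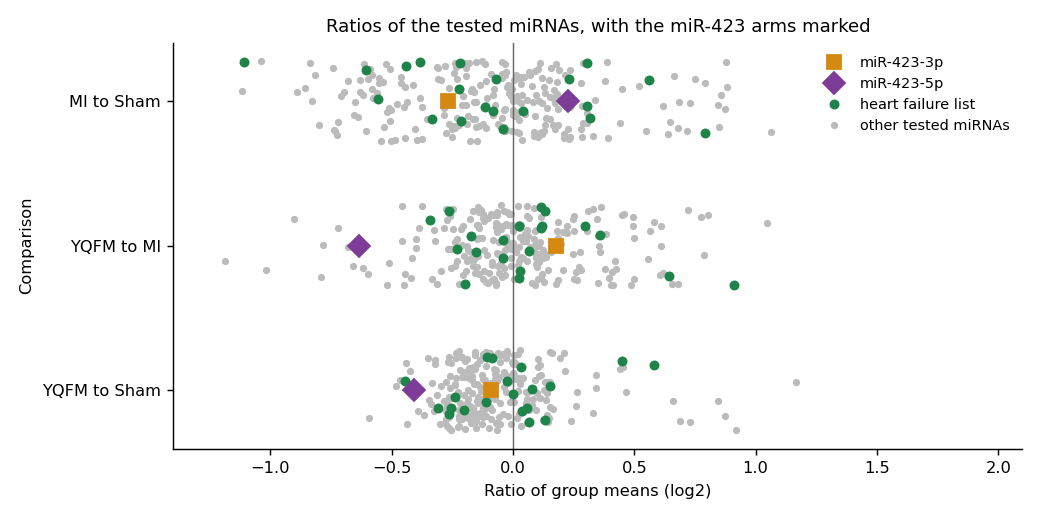
Log2 ratios of the group means for the 263 tested miRNAs in the 3 comparisons; each point is 1 miRNA, spread vertically only for visibility, with miR-423-5p as a diamond, miR-423-3p as a square and the 20 tested miRNAs of the heart failure list as dark circles. miR-423-5p lies at -0.63 for YQFM to MI, where 8 miRNAs lie lower, and at 0.23 for MI to Sham. miR-423-3p lies at 0.18 and -0.27.

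The absence of overlap in miR-423-5p depended on how the signal was computed and scaled. Before scaling, the signals were 57, 49.2, 58.4 and 70.8 in Sham, 73.6, 60.8, 72.1 and 73.5 in MI, and 47.6, 40.1, 49.2 and 61.6 in YQFM on replicates 1 to 4. YQFM replicate 4 was then above MI replicate 2, and the other 3 YQFM arrays remained below all MI arrays. The authors' processed values, whose 75th percentile ranged from 206 to 334 between arrays, gave 64.3 to 81.8 in MI, 44.8 to 69.2 in YQFM and 54.9 to 78 in Sham. The array percentile used for scaling was 240.3 ± 46.1 for MI, 259 ± 18.2 for YQFM and 233 ± 23.1 for Sham (SD, n = 4 each). Of 12 other ways to compute or scale the signal, 6 kept YQFM entirely below MI and 6 gave an overlap. Each overlap left 3 of the 4 YQFM arrays below all MI arrays. These ways are not separate checks. Scaling the authors' values returned the reported ratios of this arm. The brightest probe is probe 1 and the dimmest detected probe is probe 2, and each probe was also taken alone.

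The groups overlapped in miR-423-3p. In Sham hearts, its scaled signal was 13.1, 13.5, 10.9 and 10.4 on replicates 1 to 4. In MI hearts, it was 10.4, 8.35, 9.89 and 11.2. In YQFM hearts, it was 9.59, 12, 12.5 and 10.9. Each pair of groups shared part of its range, and the lowest array was MI replicate 2.

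The log2 mean of miR-423-3p was 3.57 ± 0.19 for the Sham arrays, 3.31 ± 0.18 for MI and 3.49 ± 0.17 for YQFM (SD, n = 4 each). Against Sham, MI differed by -0.27 (SE 0.13, 95% confidence interval -0.55 to 0.02), with an adjusted p of 0.195 by limma and an exact two-sided permutation p of 0.114. Between YQFM and MI, the difference was 0.18 (SE 0.13, interval -0.11 to 0.46), with a limma adjusted p of 0.519 and an exact permutation p of 0.229. YQFM differed from Sham by -0.09 (SE 0.13, interval -0.37 to 0.20), with a limma adjusted p of 0.852 and an exact permutation p of 0.543. With 4 rats against 4, the smallest exact p is 0.0286. No difference of miR-423-3p passed the test, and the YQFM to MI interval includes a change of up to 0.46 in 1 direction and 0.11 in the other.

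The YQFM to MI ratios of the arms had opposite signs. The change of miR-423-5p less that of miR-423-3p was -0.81 on the log2 scale. This difference depended on the processing. It was -0.062 with the total gene signal of the scanner software and -0.31 with normexp background correction. With the slide as a block, which compares 1 YQFM with 1 MI array, it was -0.28. Relative to the Sham mean, the log2 difference between the arms was -0.109, -0.365, 0.205 and 0.269 on Sham replicates 1 to 4. It was 0.429, 0.648, 0.846 and 0.0503 in MI. It was -0.229, -0.565, -0.46 and -0.0182 in YQFM. Each MI array had a higher value than each YQFM array, with MI replicate 4 and YQFM replicate 4 closest to each other, and the Sham arrays (SD 0.294) overlapped both groups. Since miR-423-5p enters this difference, it is a description without a test. Over the 12 arrays, the arms had a Pearson r of -0.349 and a Spearman rho of -0.503, and an r of -0.214 after the group means were removed. All points of these correlations share the array's scaling factor.

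The probes of miR-423-5p agreed. Both were detected on 12 of 12 arrays, and the median coefficient of variation among the spots of 1 array was 7.98% for probe 1 and 7.37% for probe 2. Their log2 signals had an r of 0.985 over the 12 arrays and of 0.952 with the group means removed, with shared array, RNA and scaling behind each point. For probe 1 alone, the mean was 75 ± 11.5 on MI and 51.3 ± 5.19 on YQFM arrays, and for probe 2 alone it was 70.4 ± 15.8 on MI and 42 ± 7.71 on YQFM arrays (SD, n = 4 each). With either probe, all YQFM arrays were below all MI arrays, and the log2 ratio of YQFM to MI was -0.54 and -0.74. The arm was chosen for a lower signal in YQFM than in MI, and its probes are nested. This order in each probe is therefore favored by the choice and is no separate support.

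The probes of miR-423-3p did not agree. Probe 1 was detected on 12 arrays, probe 2 on 11, and probes 3 and 4 on 0, so that the average over the 4 probes includes 2 that were not well above background. The median spot variation was 24.7% for probe 1 and 18% for probe 2. Over the 12 arrays, probes 1 and 2 had an r of -0.0331, and of 0.226 with the group means removed. Probe 1 had means of 16.7 ± 2.21, 16.6 ± 1.6 and 14.4 ± 1.45 for Sham, MI and YQFM, whereas probe 2 had 22.1 ± 3.05, 17.1 ± 3.28 and 22.1 ± 3.75 (SD, n = 4 each). The log2 ratio of YQFM to MI was -0.20 with probe 1 and 0.38 with probe 2. The sign reported for miR-423-3p, and with it the opposite signs of the arms, was therefore that of probe 2 and not of probe 1. The undetected probes 3 and 4 also enter the average. Their means were 2.38 and 3.87 on MI arrays and 2.2 and 6.35 on YQFM arrays. With probe 1 of miR-423-3p in place of the average, the change of miR-423-5p less that of miR-423-3p was -0.43. With the total gene signal, both arms had a ratio below 0, of -0.69 and -0.63.

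**Figure D3:**
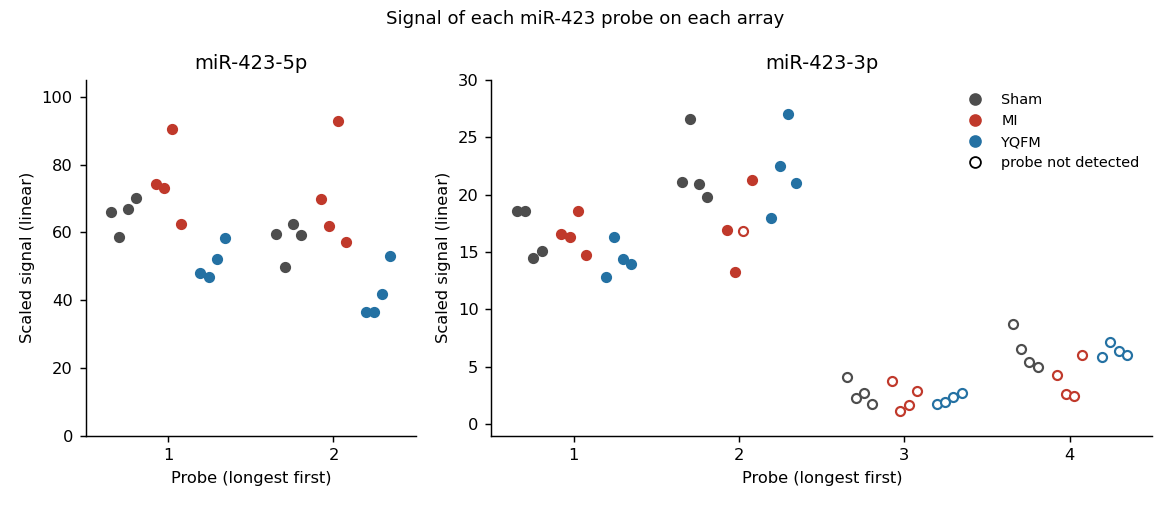
Scaled signal (linear axis) of each probe of miR-423-5p (left, 2 probes) and miR-423-3p (right, 4 probes), longest probe first; each point is 1 of the 12 arrays, colored by group, and open points are arrays on which the probe was not detected. Both probes of miR-423-5p, the arm chosen for this order, put YQFM below MI. The miR-423-3p probes 1 and 2 order the groups differently, and probes 3 and 4 stay between 1.2 and 8.77, detected on 0 arrays.

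Slide and group could be separated only in part. On the 1 slide with both MI and YQFM arrays, YQFM replicate 1 was lower than MI replicate 4 by a log2 ratio of -0.50 for miR-423-5p and -0.22 for miR-423-3p, with 1 array each and no test. On the slide with Sham and YQFM arrays, the log2 ratio of the 3 YQFM arrays to the 4 Sham arrays was -0.36 for miR-423-5p and -0.015 for miR-423-3p. No slide held both MI and Sham, which were linked only through the YQFM arrays of slides 2 and 3. With the slide as a block, MI to Sham gave a log2 ratio of 0.14 for miR-423-5p and 0.21 for miR-423-3p. For YQFM to MI, the ratio of miR-423-5p, whose sign was fixed by the choice of the arm, ranged from -0.78 with the dimmest detected probe to -0.29 with normexp background correction, over 23 alternatives that moved the value. Without the 2 arrays with conflicting source names it was -0.72. Of 24 alternatives that moved the ratio of miR-423-3p, 5 gave it the opposite sign. Of these 5, the slide block and the value within slide 2 are the same comparison, of YQFM replicate 1 with MI replicate 4. Probe 1 alone and the dimmest detected probe, also among the 5, read the same probe.

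**Figure D4:**
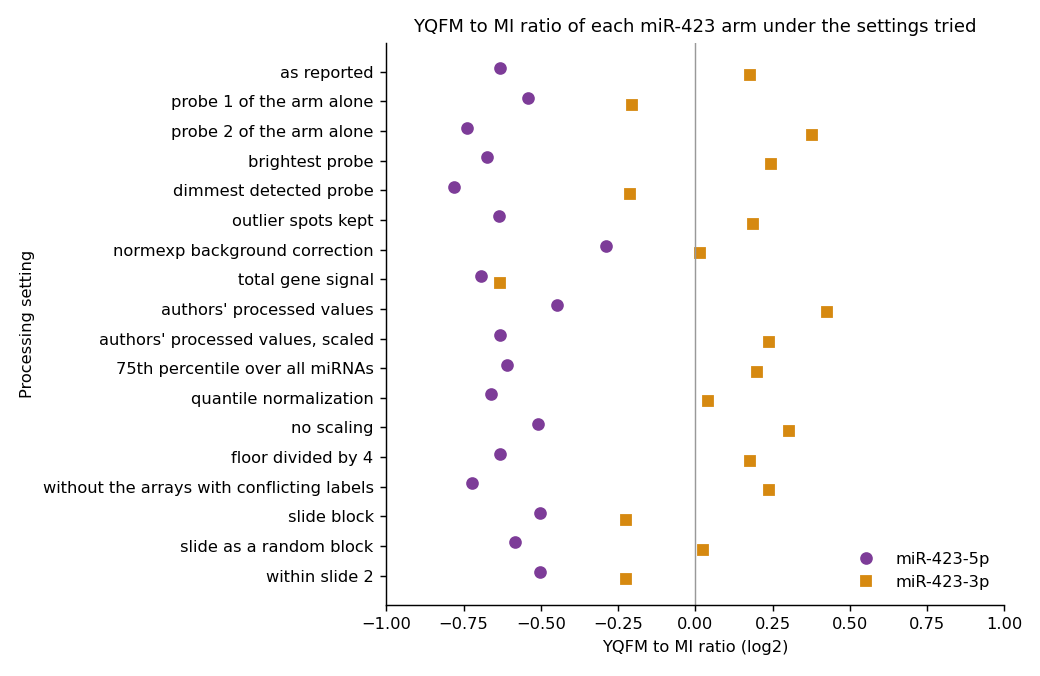
Log2 ratio of YQFM to MI for miR-423-5p (circles) and miR-423-3p (squares) as reported and under other processing settings, listed on the y axis. Each point is 1 fit over the arrays, except within slide 2, which is 1 YQFM array against 1 MI array. The slide block rests on the same comparison. miR-423-5p, chosen for a ratio below 0, lies between -0.78 and -0.29, and miR-423-3p falls on both sides of 0.

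The signal of cell type markers was set beside these values. Summed over 4 fibroblast miRNAs, all detected on every array (miR-199a-3p, miR-199a-5p, miR-214-3p and miR-21-5p), the scaled signal was 380 to 561 on Sham arrays, 473 to 1100 on MI arrays and 488 to 1540 on YQFM arrays. The sum of 6 cardiomyocyte miRNAs, of which 4 were detected on every array and miR-208b-3p on 0, was 10100 to 13400, 9410 to 11800 and 9210 to 11500 for the same groups. For 6 leukocyte miRNAs, of which miR-142-3p and miR-142-5p were detected on 0 arrays, the ranges were 331 to 386, 322 to 411 and 328 to 398. The endothelial pair, miR-126a-3p and miR-126a-5p, summed to 563 to 733, 707 to 941 and 575 to 712, with the highest range in MI. This sum was mostly miR-126a-3p, at 548 to 924 over all arrays, with log2 ratios of 0.23 for MI to Sham and -0.23 for YQFM to MI. The ratios of miR-126a-5p, at 11.8 to 19.7 and detected on 10 arrays, were -0.11 and 0.06. The part of these cells in the miR-423-5p values was not tested.

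Some miRNAs had a profile over the 12 arrays like that of miR-423-5p. Among the 200 others detected on all arrays, the Pearson r of log2 signal was highest for miR-3085 (0.853), miR-770-3p (0.816), miR-134-5p (0.773), miR-30c-2-3p (0.761) and miR-326-5p (0.757). All 5 had their highest group mean in MI and their lowest in YQFM, as their choice by likeness to miR-423-5p favors, and 2 of them remained among the 5 highest with the group means removed. For miR-3085, the log2 means of Sham, MI and YQFM were 7.29 ± 0.10, 7.48 ± 0.33 and 7.03 ± 0.14 (SD, n = 4 each). For miR-326-5p, they were 4.21 ± 0.50, 5.06 ± 0.50 and 3.87 ± 0.33. The lowest r was that of miR-341, at -0.613, with its lowest mean in MI. By the same measure, miR-423-3p ranked 165th of the 200.

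The profile of miR-423-3p was shared by a different group. miR-760-5p (0.915), miR-6328 (0.904), miR-291a-5p (0.896), miR-3549 (0.876) and miR-3541 (0.874) had the highest r. All 5 had their lowest mean in MI and their highest in Sham, as their choice by likeness to miR-423-3p favors. The lowest r was that of miR-3588 (-0.774). An r above 0.8 was reached by 13 miRNAs for miR-423-3p and by 2 for miR-423-5p. With the group means removed, the r of miR-760-5p was 0.876 and that of miR-3085 with miR-423-5p was 0.675.

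Other miRNAs that have been studied in blood as heart failure markers gave no calls between YQFM and MI. Of a list of 24 such miRNAs, all on the array, 20 were tested; miR-675-5p, miR-18a-5p, miR-301a-3p and miR-221-3p were not. For YQFM to MI, 0 were called in either direction, as among all 263 tested, and 12 were above 0 and 8 below. All YQFM arrays were below all MI arrays in 0 of the 20, near the 2.28% of all tested. In 2 of the 20, miR-320-3p and miR-328a-3p, all YQFM arrays were above all MI arrays, beside 11 of the 263 (4.18%). At an unadjusted p under 0.05 were 3 of the 20 and 50 of the 263. The median log2 ratio was 0.026, beside -0.0077 over all tested miRNAs, and it was -0.0034 without MI replicate 2, -0.084 without MI replicate 3 and -0.078 without YQFM replicate 1. As for miR-423-5p, the ratio was above 0 for MI to Sham and below 0 for YQFM to MI in 5 of the 20, which were miR-21-5p, miR-16-5p, miR-126a-3p, let-7i-5p and miR-652-3p, beside 95 of the 263 tested miRNAs.

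In the list, the largest YQFM to MI ratio was that of miR-92b-3p, at 0.91 (SE 0.23, limma adjusted p = 0.0786), detected on 11 of 12 arrays. The 5 with the largest YQFM to MI ratios among those detected on all arrays were miR-320-3p (0.64), miR-328a-3p (0.36), miR-21-5p (-0.34), miR-129-5p (0.30) and miR-16-5p (-0.26). Their limma adjusted p ranged from 0.079 for miR-320-3p to 0.783 for miR-21-5p. miR-320-3p was at 84.8, 82.1, 80.2 and 92.9 in MI and at 101, 148, 140 and 147 in YQFM, on replicates 1 to 4, so that every YQFM array was above every MI array, as in 4.18% of all tested miRNAs. Without YQFM replicate 1 it was called, with a log2 ratio of 0.78 and a limma adjusted p of 0.0255. With the slide as a block, which compares only YQFM replicate 1 with MI replicate 4, the ratio was 0.12. It was 0.44 (limma adjusted p = 0.997) with the slide as a random block. miR-21-5p, a miRNA known from fibroblasts of the injured heart, reached 650 on YQFM replicate 1 and 225 to 244 on the other 3 YQFM arrays, beside 204 to 586 on the MI arrays.

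For MI to Sham, 2 of the 20 listed miRNAs were called, both lower in MI, and 0 were called higher. Over all 263 tested, 19 were called (7.22%), 18 of them lower and 1 higher. Every MI array was below every Sham array in 5 of the 20, beside 31 of the 263 (11.8%). The median log2 ratio of the list was -0.098, beside -0.045 over all tested. miR-92b-3p had a log2 ratio of -1.11 (SE 0.23, limma adjusted p = 0.0195), with scaled signals of 30.6, 34.4, 27.3 and 25.5 in Sham and 13, 11.4, 10.4 and 22.1 in MI. miR-22-3p, a muscle-enriched miRNA linked to hypertrophy, had a log2 ratio of -0.44 (SE 0.10, limma adjusted p = 0.0279), with 1810, 1650, 1780 and 1800 in Sham and 1320, 1120, 1230 and 1550 in MI. In both, MI replicate 4 was the MI array nearest to Sham. These 2 calls depended on single arrays: the limma adjusted p ranged from 0.000896 to 0.0736 for miR-92b-3p, which was lost without MI replicate 2, MI replicate 3 or Sham replicate 1. For miR-22-3p it ranged from 0.00313 to 0.102, and the call was lost without any 1 of MI replicates 1 to 3 or Sham replicates 1, 3 and 4. With slide as a random block, the adjusted p was 0.834 and 0.75. For YQFM to Sham, 0 of the listed miRNAs were called, and their median was -0.013 beside -0.11 over all tested.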

How the data were processed

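The authors deposited the scanner output of 12 arrays, with the intensity of each spot background-subtracted by Agilent Feature Extraction 10.7.1.1 and not scaled between arrays, and a table of processed intensity values, at 0.1 where not detected. The paper calls these normalized and names GeneSpring without a method. Per array, their median ratio to the unscaled signals was 1.06 to 1.15.

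Control and outlier spots were left out. Signals were averaged over spots, then probes, divided by the array's 75th percentile (taken over 201 miRNAs seen on every array), multiplied by the mean percentile, floored at 5.20 (log2 2.38) and log2-transformed. Detection of a miRNA required at least 1 probe with over 50% of spots well above background. The 263 miRNAs detected on at least 2 of 4 arrays of a group were fitted over all 12 arrays (limma 3.58.1, R 4.3.3), with Benjamini-Hochberg adjustment at 0.05, and the fit was tested on simulated data. miR-423-3p was also compared by exact permutation. The number of arrays limits the precision. P-values measure the spread between the arrays of a group, in which the rats differ and, for MI and YQFM, also the slides. Figures were drawn with Python 3.11.15 and matplotlib 3.10.9.

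The members and lists were chosen with earlier results of these data known. The miRNAs named were both arms, array miRNAs with the same seed, called miRNAs of the heart failure list with the 5 largest YQFM to MI ratios, and the 5 highest and 1 lowest correlations with each arm. Cell type lists covered cardiomyocytes, fibroblasts, leukocytes, endothelial cells, erythrocytes and smooth muscle. The summed signal of 4 erythrocyte miRNAs for Sham, MI and YQFM was 226 ± 22.6, 189 ± 27.2 and 182 ± 13.9, and that of 2 smooth muscle miRNAs 539 ± 49.1, 502 ± 111 and 479 ± 57.6 (SD, n = 4). Alternatives covered background correction, signal, scaling, floor, filter, probes, left-out arrays, slide, replicate number and test. Same-numbered arrays correlated between -0.636 and 0.323 in their deviations from the group means, so the numbers did not pair the samples.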

Additional observations from a re-analysis of the deposited data

How the results depend on the processing

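The ratios of miR-423-5p, which chose the arm, ranged from 0.11 to 0.44 for MI to Sham, from -0.78 to -0.29 for YQFM to MI and from -0.49 to -0.18 for YQFM to Sham. Many settings, such as the filter or the test, cannot move these values, and 23 of 35 did so for YQFM to MI. Larger moves included those with normexp (0.11 for MI to Sham, -0.29 for YQFM to MI, -0.18 for YQFM to Sham), the brightest probe (0.44 for MI to Sham), the total gene signal (0.41 for MI to Sham), the slide block (0.14 for MI to Sham) and without MI replicate 3 (0.11 for MI to Sham). Leaving out 1 array gave 0.11 to 0.31 for MI to Sham and -0.72 to -0.52 for YQFM to MI.

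miR-423-3p passed the test in no alternative and changed sign in several. For MI to Sham it became positive with normexp (0.015), the dimmest detected probe (0.076) and the slide block (0.21). For YQFM to MI it became negative with the total gene signal (-0.63) and with probe 1, taken alone (-0.20) or as the dimmest detected probe (-0.21). It was also negative, at -0.22, with the slide block and within slide 2, which both compare 1 YQFM with 1 MI array. For YQFM to Sham it became positive with normexp (0.031), the authors' processed values (0.18, and 0.019 when scaled), the 75th percentile over all miRNAs (0.027), no scaling (0.068) and the brightest probe (0.11). The difference between the changes of the arms, -0.81 as reported, was -0.31 with normexp, -0.062 with the total gene signal, -0.28 with the slide block and -0.43 with probe 1 of miR-423-3p alone.

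The number of miRNAs called for MI to Sham, 19, was 5 with normexp, 0 with the total gene signal, the authors' values, no scaling, the slide block and the slide as a random block, 4 with the percentile over all miRNAs, 7 with quantile normalization or with detection on every array required, 1 with the brightest and 3 with the dimmest probe, 6 with the methods' t-test and 58 without the 2 arrays with conflicting labels. It ranged from 4 to 62 when 1 array was left out, and was 62 without MI replicate 4. For YQFM to MI, the count of 0 became 1 with normexp, 28 without the arrays with conflicting labels and without MI replicate 4, and 23 without YQFM replicate 1, with a range of 0 to 28 over single arrays left out. With the replicate block, 10 were called for MI to Sham and 0 for the other comparisons, and the ratios of both arms did not move. The same-numbered arrays did not deviate together, so this block is no paired analysis.

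The median of the heart failure list for MI to Sham was 0.083 with the total gene signal and 0.17 with the brightest probe, and for YQFM to MI 0.21 with the authors' processed values and -0.084 to 0.098 with 1 array left out. Within the list, miR-328a-3p fell to -2.46 for YQFM to MI with the total gene signal. The slide block turned miR-92b-3p to 0.14 for MI to Sham, and miR-21-5p to 0.49, miR-129-5p to -0.23 and miR-16-5p to 0.52 for YQFM to MI; the slide as a random block gave miR-16-5p 0.038. For YQFM to MI, the slide block compares only YQFM replicate 1 with MI replicate 4, which shared slide 2. For MI to Sham, it links the groups through the YQFM arrays. The cause of the other changes was not tested. Of the 5 miRNAs most like miR-423-5p, 2 remained among the top 5 by deviations from the group means and 3 by Spearman's rho, and 4 and 4 for miR-423-3p. miR-423-3p had signals near the floor and 2 of its 4 probes undetected. The part of this in its changes of sign was not tested.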
